A study of Mus musculus with 6 samples.

Results

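The genes of hepatic gluconeogenesis, with the PGC-1 coactivators and the transcription factors that act on them, were followed in liver RNA of Dnajb4-/- and wild-type mice. A gene was taken as a member where the array table gave a probe set with its symbol and no other symbol. All 10 listed genes were found, as 22 of 45037 probe sets that are no controls and as 10 of 18193 genes. They are the coactivators Ppargc1a and Ppargc1b, the enzymes Pck1, Pck2, G6pc, Fbp1 and Pcx, and the transcription factors Foxo1, Foxo3 and Creb3l3. HLJ1, encoded by Dnajb4, is a stress-induced chaperone of the DnaJ family, and the study asked what its loss does to liver gene expression. Both groups were C57BL/6 mice labelled male, aged 6 to 8 weeks, untreated, fed freely and kept on a light-dark cycle. The wild-type group (Dnajb4+/+, n = 3) and the knockout group (Dnajb4-/-, n = 3, made by gene targeting in embryonic stem cells, so that the gene is lost in every cell of the animal) were hybridised as 1 Affymetrix mouse expression array per mouse. The hour at which livers were taken is not given in the sources used here, nor is any time without food.

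In gluconeogenesis the liver builds glucose from lactate, glycerol and amino acids, which keeps blood glucose up between meals. The pathway runs along glycolysis in reverse, except at the steps that pyruvate carboxylase, phosphoenolpyruvate carboxykinase, fructose bisphosphatase and glucose 6-phosphatase carry out. Glucagon and glucocorticoids turn the genes of these enzymes on through CREB, FoxO factors, HNF4alpha and the coactivator PGC-1alpha, and insulin turns them off.

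The normalized intensities had array medians between 31.8 and 32.5. Over the log2 averages of all genes, arrays of the same genotype correlated at r of 0.9981 to 0.9985, against 0.9935 to 0.9948 between genotypes. Dnajb4 itself averaged 137 ± 5.51 (SD, n = 3) in wild-type and 124 ± 6.85 in Dnajb4-/- arrays, a log2 difference of -0.14 that did not pass the test in limma (adjusted p = 0.145). Of its 3 probe sets the brightest was called lower, at 589 ± 23.5 against 466 ± 13.6 (log2 difference of -0.34, adjusted p = 0.010), and the others overlapped between genotypes. Whether these probes lie in the deleted part is not given in the sources used here, so this does not check the genotype labels. Xist, the RNA that marks the inactive X chromosome of female cells, stood at 364 to 402 in the wild-type arrays and at 14.3 to 17.1 in the Dnajb4-/- arrays, although all mice were labelled male. Of 3 Y-linked genes 0 were called in limma and 2 had an unadjusted p under 0.05, with Eif2s3y at 68.7 against 79.5 (adjusted p = 0.0655), Kdm5d at 25.5 against 25.8 (adjusted p = 0.826) and Uty at 20.2 against 24.3 (adjusted p = 0.0507). Of the liver genes known to be higher in females, 14 of 14 measured were lower in Dnajb4-/- arrays. Of those higher in males, 7 of 8 were higher. Over all genes 9.57% were called lower and 5.09% higher. Sex-dependent expression and genotype cannot be told apart for any result given here. The 7 measured hepatocyte markers were bright in all arrays, with a summed level of 136529 to 137374 in wild-type and 135967 to 136803 in Dnajb4-/- livers. In whole tissue fewer cells of a type and less RNA per cell cannot be told apart.

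Of the 10 members 9 had a lower mean in the knockout livers, and G6pc had a higher one. In the fit over all genes (limma, adjusted p under 0.05 after Benjamini-Hochberg adjustment), 4 of 10 members were called lower, beside 9.57% of all genes, and 1 of 10 was called higher, beside 5.09%. The coactivators Ppargc1a and Ppargc1b and the mitochondrial enzymes Pck2 and Pcx were the members called lower, and G6pc was the member called higher. Of all calls 34.7% were higher, and 50.5% with arrays centred on brighter probe sets. The 3 Dnajb4-/- arrays all lay below the 3 wild-type arrays for 7 of 10 members, beside 19.4% of all genes, and all above for 1, beside 16.1%. The median log2 difference (Dnajb4-/- minus Dnajb4+/+) of the members was -0.15, that of all genes 0.0075. At the level of probe sets, 9 of 22 were called lower, beside 6.51% of all probe sets, and 1 was called higher, beside 3.91%. Without an array at a time the number of members called lower was 2, 3 and 2 on leaving out wild-type replicates 1, 2 and 3, and 1, 2 and 1 on leaving out Dnajb4-/- replicates 1, 2 and 3. Ppargc1a and G6pc passed in each of these fits.

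**Figure D1:**
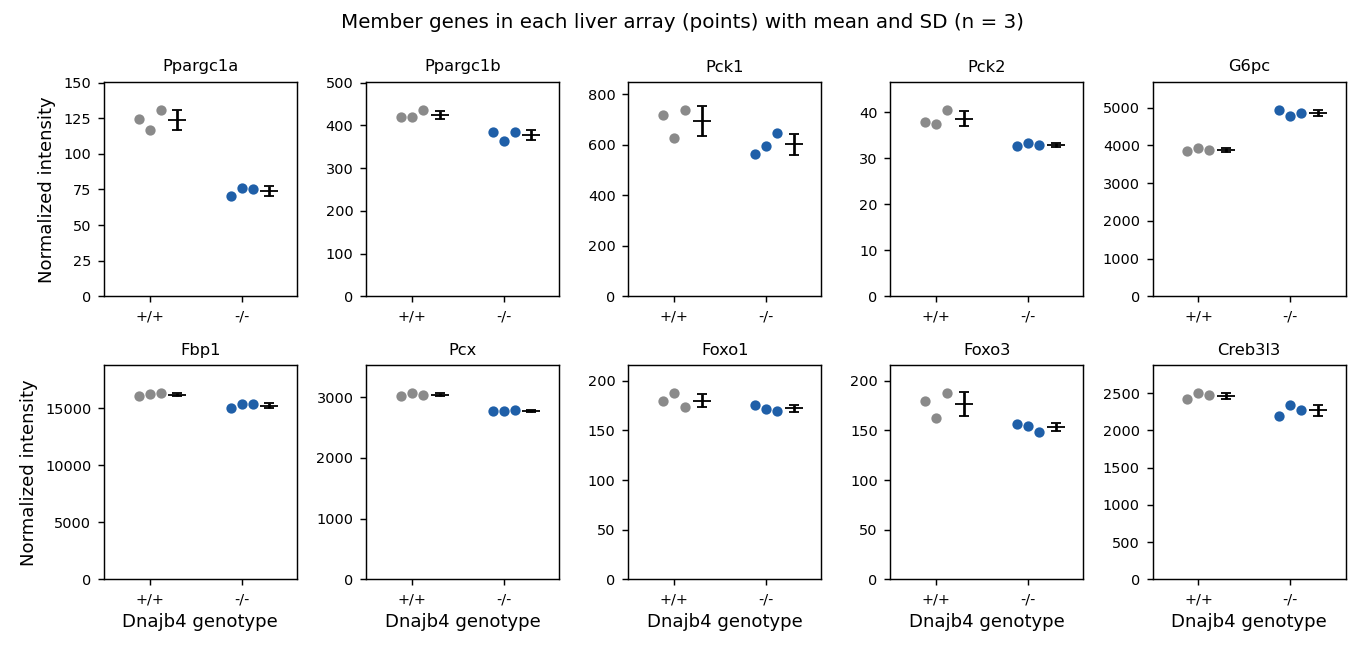
Normalized intensity (linear scale from 0, in array units) of each member gene, with 1 point for each of the 6 liver arrays and the mean ± SD of the 3 arrays of a genotype beside the points. Ppargc1a stands apart furthest downward, at 124 in wild-type against 74.0 in Dnajb4-/- livers, and G6pc is the member whose Dnajb4-/- points lie above, at 4855 against 3882.

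The promoters of Ppargc1a, G6pc and Pck1 are shown, since these members had the largest fall, the rise, and a fall called in 1 of 3 probe sets. The windows are the 250 bases before the annotated start of the gene in RefSeq, build GRCm38.p6, printed 5′ to 3′ on the gene's strand. Capitals mark TGACG or its complement CGTCA, the core letters of the cAMP response element to which CREB binds. The Ppargc1a window is chr5:51567726-51567975 on the minus strand, the Pck1 window chr2:173152823-173153072 on the plus strand and the G6pc window chr11:101367466-101367715 on the plus strand.
Ppargc1a: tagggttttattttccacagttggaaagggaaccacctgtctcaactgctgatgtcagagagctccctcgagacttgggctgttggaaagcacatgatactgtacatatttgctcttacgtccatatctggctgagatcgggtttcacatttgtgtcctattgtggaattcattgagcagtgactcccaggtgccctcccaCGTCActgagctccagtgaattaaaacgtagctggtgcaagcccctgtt
Pck1: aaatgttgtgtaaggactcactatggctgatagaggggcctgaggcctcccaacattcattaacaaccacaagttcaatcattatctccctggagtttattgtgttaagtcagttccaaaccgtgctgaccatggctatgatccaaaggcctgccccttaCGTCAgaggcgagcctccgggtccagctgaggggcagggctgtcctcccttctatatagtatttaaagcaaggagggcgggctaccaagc
G6pc: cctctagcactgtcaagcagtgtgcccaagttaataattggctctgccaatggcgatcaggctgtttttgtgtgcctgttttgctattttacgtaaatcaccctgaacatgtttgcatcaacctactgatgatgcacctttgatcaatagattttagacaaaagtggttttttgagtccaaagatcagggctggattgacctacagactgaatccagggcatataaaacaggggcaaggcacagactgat
The match begins 49 bases before the start in Ppargc1a and 90 bases before it in Pck1, and the G6pc window holds neither spelling. Searched on both strands, these letters occurred in 17.77% of the 32851 windows of the same length, among members also in a window of Foxo3, at 64 bases, and of Creb3l3, at 239 bases. The FoxO motif GTAAACA, held by 3.166% of all windows, was in none of the 11 windows of the 9 members listed there. The E-box CACGTG, to which clock factors bind, was in 6.021% of all windows and in a window of Pcx, at 248 bases. CACGTG and TGACG can share letters where they adjoin, and no member window held both. These matches are a description of letters only. Other spellings of these binding sites were not searched, so a window without a match may still hold such a site.

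Ppargc1a, which encodes PGC-1alpha, the coactivator that fasting induces in liver, was the member that fell furthest. Averaged over its 5 probe sets, it read 124, 117 and 131 in the wild-type arrays and 70.2, 76.0 and 75.6 in the Dnajb4-/- arrays. The groups did not overlap, and the knockout mean was 59.7% of the wild-type mean. The log2 difference was -0.74 with an SE of 0.06 (limma, adjusted p = 3.57e-04).

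All 5 probe sets of Ppargc1a were called lower, but not by equal amounts. The brightest, 1460336_at, read 255, 237 and 246 in wild-type and 112, 119 and 124 in Dnajb4-/- arrays, a log2 difference of -1.06 (adjusted p = 1.52e-04). The probe set 1437751_at read 101, 104 and 126 against 55.9, 58.2 and 54.3, a log2 difference of -0.97. A smaller drop was seen by 1434100_x_at, at 95.4, 83.4 and 96.5 against 67.9, 72.7 and 72.0, a log2 difference of -0.37 (adjusted p = 0.0204). The remaining probe sets lay between these, with log2 differences of -0.54 for 1434099_at and -0.78 for 1456395_at. Within each array the log2 ratio of 1460336_at to 1434100_x_at was 1.35 to 1.5 in wild-type and 0.71 to 0.79 in Dnajb4-/- livers, so the groups did not overlap in it. Its exact two-sided permutation p was 0.1, the smallest that 3 against 3 arrays allow. Which transcripts each probe set covers, and whether 1434100_x_at also reads other sequences, was not analysed here.

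Ppargc1a is expressed in skeletal muscle as well as in liver, so muscle markers were read beside it. Of 11 such markers 10 were lower, beside 9.57% of all genes. No level was at 0, and the summed level of the muscle markers was 807 to 870 in wild-type and 394 to 408 in Dnajb4-/- arrays. Acta1, skeletal muscle actin, averaged 219 against 51.0. The part of muscle RNA in the Ppargc1a values was not tested.

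Ppargc1b, encoding PGC-1beta, the related coactivator of mitochondrial and lipid synthesis genes, fell less. Its 1 probe set read 420, 420 and 435 in wild-type and 384, 364 and 386 in Dnajb4-/- arrays, with no overlap. The log2 difference was -0.17 with an SE of 0.04 (limma, adjusted p = 0.0384). That call was lost without any 1 of the 6 arrays, at adjusted p of 0.0734 to 0.113 (0.0935, 0.0752 and 0.113 without wild-type replicates 1, 2 and 3, and 0.0746, 0.11 and 0.0734 without Dnajb4-/- replicates 1, 2 and 3). It was also lost with quantile normalization (adjusted p = 0.0841), with arrays centred on brighter probe sets (0.0728), without probe sets ending in s_at, x_at or a_at (0.0547) and by the methods' t-test (0.0536). In the fit over all probe sets it did not pass (adjusted p = 0.0746).

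Likeness to Ppargc1a over the 6 arrays was read as Pearson's r of log2 values, as a description only, since the arrays form 2 genotype groups and any gene that differs between them has a high r. Of 9096 genes at or above the median level, 1868 had an r over 0.9. The 5 highest were Zfp281, Casp8, Srebf1, Manba and Rps4l, all with an r of 0.9992 to 0.9997. Srebf1, encoding the lipid synthesis factor SREBP-1, averaged 1245 ± 39.5 in wild-type and 931 ± 17.9 in Dnajb4-/- livers. Among the other members r to Ppargc1a ran from 0.54 for Foxo1 to 0.98 for Pck2, and was -0.99 for G6pc.

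Of the enzymes, G6pc, the catalytic subunit of the glucose 6-phosphatase that releases free glucose, was higher in the knockout livers. Its probe set read 3841, 3937 and 3866 in wild-type and 4932, 4768 and 4865 in Dnajb4-/- arrays. Every Dnajb4-/- array lay above every wild-type array, and the mean was 125% of wild-type. The log2 difference was 0.32 with an SE of 0.04 (limma, adjusted p = 0.0018), and the same probe set passed in the fit over all probe sets (adjusted p = 0.00617).

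Pck1, the cytosolic phosphoenolpyruvate carboxykinase, gave no single answer, because its 3 probe sets differed. Averaged over them it read 717, 626 and 737 in wild-type and 565, 595 and 646 in Dnajb4-/- arrays. The groups overlapped, and the log2 difference of -0.20 with an SE of 0.08 did not pass (limma, adjusted p = 0.136). The bright probe set 1423439_at read 10834, 10366 and 10161 against 9431, 9880 and 9495. These values did not overlap, yet the log2 difference of -0.12 did not pass (adjusted p = 0.175). The probe set 1439617_s_at read 1561, 1480 and 1527 against 896, 926 and 910. Here the knockout livers were at 59.8% of wild-type, a log2 difference of -0.74 with an SE of 0.05 that passed (adjusted p = 2.56e-04). An ending of s_at marks a probe set whose probes match several transcripts, of the same or of other genes, so this fall may not belong to Pck1 alone. The dim probe set 1455209_at read 21.8, 16 and 25.8 against 21.4, 23.0 and 31.2, which overlapped (adjusted p = 0.478).

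Adipose tissue and kidney express Pck1 too. Of 4 measured adipocyte markers 1 was lower (Adipoq, at 19.8 against 14.4), beside 9.57% of all genes. The adipocyte markers summed to 179 to 188 in wild-type and 169 to 181 in Dnajb4-/- arrays. Adipoq was not called without wild-type replicate 1 or 3 or without Dnajb4-/- replicate 1 or 2 (adjusted p = 0.0741, 0.075, 0.0579 and 0.0641). Of 7 kidney tubule markers 2 were higher, both dim, beside 5.09% of all genes. The sums of these markers were 123 to 133 in wild-type against 134 to 141 in Dnajb4-/- arrays. The part of these tissues in the Pck1 values was not tested.

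Within each array the log2 ratio of 1439617_s_at to 1423439_at was -2.81 to -2.73 in wild-type and -3.41 to -3.38 in Dnajb4-/- livers, a shift of -0.62 (exact two-sided permutation p = 0.1, the smallest possible). Without probe sets that end in s_at, x_at or a_at the Pck1 log2 difference turned to 0.067 (adjusted p = 0.726). That value is the plain mean of the bright 1423439_at (-0.12) and the dim, overlapping 1455209_at (0.26). When the average was taken over linear intensities, so that brighter probe sets weighed more, the Pck1 log2 difference was -0.19 and passed (limma, adjusted p = 0.0215). The fall of 1439617_s_at is part of that value. With only the brightest probe set, 1423439_at, Pck1 did not pass (-0.12, limma, adjusted p = 0.104). The log2 ratio of G6pc to Pck1, by gene averages, was 2.39 to 2.65 in wild-type and 2.91 to 3.12 in Dnajb4-/- arrays, without overlap (exact two-sided permutation p = 0.1). The Pck1 average weighs equally its probe sets at 10454, 1523 and 21.2 in wild-type, so the ratio does not rank the levels of these genes. Its shift includes the fall of 1439617_s_at, which may not belong to Pck1 alone.

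**Figure D2:**
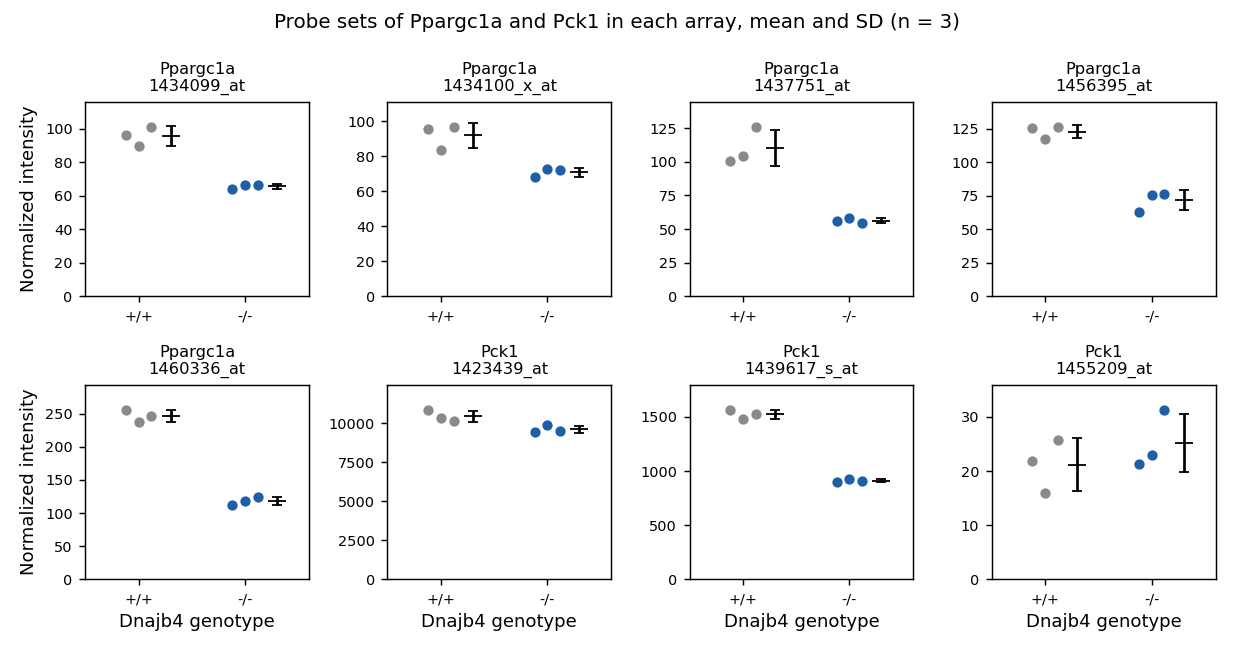
Normalized intensity (linear scale from 0, in array units) of the 5 probe sets of Ppargc1a and the 3 of Pck1, with 1 point for each array and the mean ± SD of the 3 arrays of a genotype. The Ppargc1a panels all separate the genotypes, whereas among the Pck1 panels 1439617_s_at drops from 1523 to 911, 1423439_at only from 10454 to 9602, and 1455209_at overlaps.

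Pck2, the mitochondrial form of the same enzyme, was lower. Its gene average read 37.8, 37.5 and 40.4 in wild-type and 32.6, 33.3 and 32.8 in Dnajb4-/- arrays, without overlap. The log2 difference was -0.23 with an SE of 0.04 (limma, adjusted p = 0.015), and the call was lost without Dnajb4-/- replicate 1 or 3 (adjusted p = 0.0513 and 0.0511). Both of its probe sets had a log2 difference of -0.23, and of these 1452620_at passed (adjusted p = 0.0458) and 1425615_a_at did not (adjusted p = 0.0662). The one that passed is dim, at 15.0 in wild-type against 12.8 in Dnajb4-/- arrays, with only 28.2% of probe sets dimmer. The brighter 1425615_a_at averaged 98.7 against 84.2.

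Pcx, pyruvate carboxylase, which makes the oxaloacetate that the carboxykinases use, was slightly lower. It read 3016, 3062 and 3042 in wild-type and 2772, 2764 and 2792 in Dnajb4-/- arrays, a log2 difference of -0.13 with an SE of 0.04 (limma, adjusted p = 0.0474). The groups did not overlap, but the difference was small beside that of Ppargc1a, and the call was lost without any 1 array (adjusted p = 0.116, 0.107 and 0.116 without wild-type replicates 1, 2 and 3, and 0.106, 0.123 and 0.109 without Dnajb4-/- replicates 1, 2 and 3). It was also lost with quantile normalization (adjusted p = 0.0723) and with arrays centred on brighter probe sets (0.0981), and the same probe set did not pass in the fit over all probe sets (adjusted p = 0.104). The array also carries 4 control probe sets for pyruvate carboxylase, spread along its transcript and normally used to judge labelling. The one at the 3′ end read 2500, 2481 and 2547 against 2209, 2254 and 2282 (adjusted p = 0.0693), and the middle one named MB read 334, 349 and 352 against 262, 291 and 279 (adjusted p = 0.0169). The 5′ one read 72.2, 79.8 and 89.2 against 107, 89.1 and 90.8 (adjusted p = 0.172), and MA averaged 103 in wild-type and 104 in Dnajb4-/- livers. So the controls did not move as 1. The ratio of the 3′ to the 5′ control averaged 31.3-fold in wild-type and 23.6-fold in Dnajb4-/- arrays, while the same ratio went from 1.17 to 1.45 for Gapdh and from 2.65 to 3.17 for beta-actin. These ratios move with RNA integrity and labelling, and their part in the results was not tested. With the control probe sets averaged in, a choice made after the values were seen, the Pcx log2 difference was -0.067 (adjusted p = 0.316).

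Fbp1, liver fructose bisphosphatase, was the brightest member and showed the least relative change among the enzymes. It read 16053, 16271 and 16324 in wild-type and 14994, 15396 and 15369 in Dnajb4-/- arrays. The arrays did not overlap, and the log2 difference of -0.088, with a 95% confidence interval of -0.17 to -0.0038, did not pass (limma, adjusted p = 0.153). The same difference did pass by the methods' t-test (adjusted p = 0.0385).

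**Figure D3:**
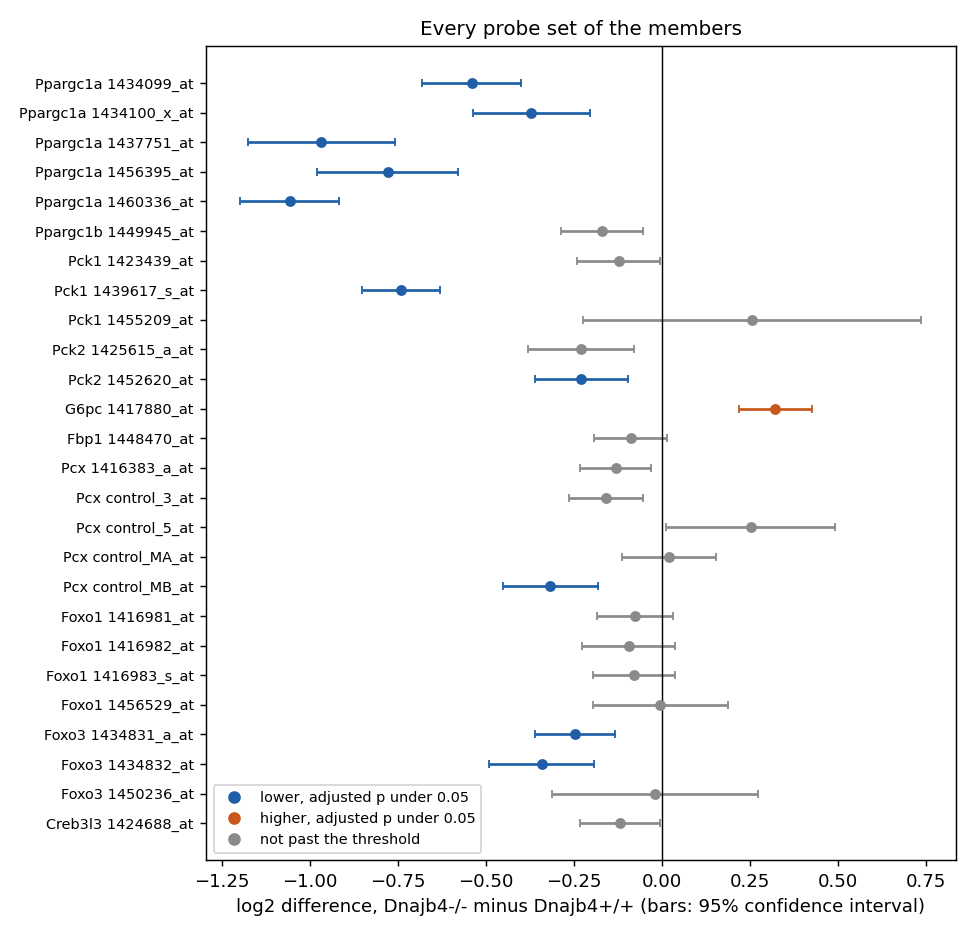
Log2 difference between Dnajb4-/- and Dnajb4+/+ arrays for each of the 22 probe sets of the members and the 4 control probe sets of Pcx (1 per line), as a point with its 95% confidence interval from the limma fit. All 5 Ppargc1a probe sets lie left of 0, between -1.06 and -0.37, G6pc lies right of 0, and the probe sets of Pck1 and of Foxo3 differ among themselves.

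Of the 3 transcription factors 0 passed the test by gene average in limma, 2 had an unadjusted p under 0.05, and 0 passed by the methods' t-test after adjustment. Foxo1, the FoxO factor that insulin signaling removes from the nucleus, read 179, 187 and 174 in wild-type and 176, 172 and 169 in Dnajb4-/- arrays over 4 probe sets. The groups overlapped and the log2 difference was -0.06, with a 95% confidence interval of -0.17 to 0.04 (limma, adjusted p = 0.386). Of its 4 probe sets 0 were called, also at an unadjusted p under 0.05.

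Foxo3, a further FoxO factor, read 180, 163 and 187 in wild-type and 156, 154 and 149 in Dnajb4-/- arrays, without overlap. Its log2 difference of -0.20, with an SE of 0.06, did not pass (limma, adjusted p = 0.0644), and it did pass without wild-type replicate 2 (-0.26, adjusted p = 0.0246). The probe sets 1434831_a_at, at 485 ± 10.9 against 408 ± 12.4, and 1434832_at, at 250 ± 7.06 against 197 ± 13.7, were each called lower (adjusted p = 0.0229 and 0.0187). The dimmer 1450236_at, at 48.8, 36.6 and 51.7 against 44.9, 45.1 and 43.9, overlapped. Among the wild-type arrays, replicate 2 had the lowest value of this probe set and of the gene average. A further probe set that lists Foxo3 with a second symbol was left out by the rule.

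Creb3l3, which encodes CREBH, a liver factor released from the endoplasmic reticulum by fasting and stress, read 2418, 2499 and 2474 in wild-type and 2194, 2337 and 2281 in Dnajb4-/- arrays. The groups did not overlap, and the log2 difference of -0.12, with a 95% confidence interval of -0.22 to -0.02, did not pass (limma, adjusted p = 0.105).

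The rest of the pathway was described from gene lists, by counts and medians. Of the isozymes and exporters of glucose, 2 of 4 fell, beside 9.57% of all genes, and those that fell are the membrane transporters. In limma 0 of the 4 rose, also at an unadjusted p under 0.05 and by the methods' t-test. Slc2a2, the glucose transporter GLUT2, averaged 6232 ± 133 in wild-type and 4852 ± 98.2 in Dnajb4-/- livers, a log2 difference of -0.36 (limma, adjusted p = 0.00149). Slc37a4, which carries glucose 6-phosphate to the glucose 6-phosphatase inside the endoplasmic reticulum, went from 3037 ± 25.4 to 2433 ± 45.2, a log2 difference of -0.32 (adjusted p = 0.00181). The transporter of the substrate and the exporter of the product of glucose 6-phosphatase were thus lower in livers where G6pc was higher.

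Genes that feed substrates into the pathway were called in 1 direction, with 7 of 13 measured genes lower, beside 9.57% of all genes. The median log2 difference of the list was -0.21. In limma 0 were higher, 1 at an unadjusted p under 0.05 and 1 by the methods' t-test. Aqp9, the glycerol channel of hepatocytes, dropped by 0.44 on the log2 scale, from 1232 ± 14.4 to 907 ± 28.5. Tat, tyrosine aminotransferase, a glucocorticoid-induced enzyme of amino acid breakdown, fell by 0.42, from 7969 ± 56.2 to 5962 ± 211. Slc25a10, the mitochondrial dicarboxylate carrier, fell by 0.33, and Mpc1, a subunit of the mitochondrial pyruvate carrier, fell by 0.29, from 5411 ± 61.4 to 4441 ± 99.7. The adjusted p of these 4 genes lay between 7.41e-04 and 0.00367 (limma).

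Of the 5 measured genes that act on the opposing, glycolytic steps, enzymes and the regulator Gckr, 4 were called lower, beside 9.57% of all genes. The median of the list was -0.22. In limma 0 of the 5 were higher, also at an unadjusted p under 0.05 and by the methods' t-test. Gckr, which is no enzyme but the inhibitory protein of glucokinase, averaged 1219 ± 16.9 in wild-type and 910 ± 8.09 in Dnajb4-/- livers, a log2 difference of -0.42 (limma, adjusted p = 5.49e-04). Pklr, liver pyruvate kinase, had a log2 difference of -0.25, and Pfkl, liver phosphofructokinase, and Pfkfb3, which makes its activator, had -0.22 each. Pfkfb2 was not called, at 19.6 against 19.7. The count of 4 lower was 2 by the methods' t-test, with arrays centred on brighter probe sets and with the replicate block. It was 1 without wild-type replicate 1 or 3 or Dnajb4-/- replicate 2, and 2 without wild-type replicate 2 or Dnajb4-/- replicate 3. Without probe sets that end in s_at, x_at or a_at, Pfkl turned to 0.093 (adjusted p = 0.649).

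Of the 6 measured genes for the reversible steps that both directions share, 2 were higher, 1 was lower and 3 were not called. Over all genes 5.09% were called higher and 9.57% lower. The median of the list was 0.12. Pgk1 rose by 0.19 on the log2 scale, from 2517 ± 43.6 to 2876 ± 40.1, and Tpi1 rose by 0.15, from 3444 ± 54.2 to 3834 ± 79.3. Aldoa, the aldolase of muscle and most other tissues, fell by 0.18, from 671 ± 11.1 to 590 ± 2.82. Leaving out wild-type replicate 1, wild-type replicate 3, Dnajb4-/- replicate 2 or Dnajb4-/- replicate 3 left 0 calls in this list, and the count of higher genes was 1 when wild-type replicate 2 or Dnajb4-/- replicate 1 was left out.

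**Figure D4:**
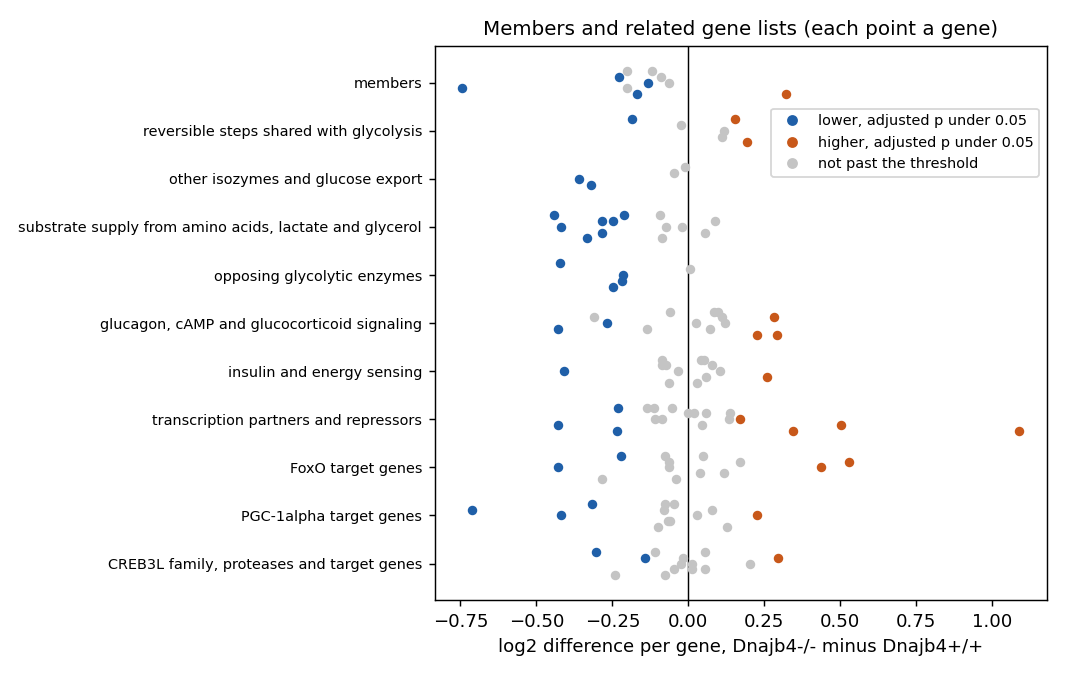
Log2 difference between Dnajb4-/- and Dnajb4+/+ arrays for each member (top line) and for each measured gene of 10 related lists, 1 point per gene, coloured by its call in the limma fit over all genes. Genes of substrate supply and of the opposing glycolytic steps lie mostly left of 0, with medians of -0.21 and -0.22, and Nr0b2 among the transcription partners lies furthest to the right, at 1.09.

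In the signaling that reaches these genes, most genes of each list were not called, beside 15526 of all 18193 genes not called. Of 14 genes of glucagon, cAMP and glucocorticoid signaling, 3 were higher and 2 were lower, beside 5.09% and 9.57% of all genes. Crem, whose products repress or activate cAMP response elements, rose by 0.28 on the log2 scale, from 53.3 ± 2.11 to 64.8 ± 2.20, and Crtc3, a CREB coactivator, rose by 0.29, from 122 ± 5.80 to 149 ± 6.39. The cAMP phosphodiesterases Pde4d and Pde4b fell by 0.43 and 0.27, though both are dim, at 20.1 and 34.1 in wild-type livers. Of 13 genes of insulin and energy sensing, 1 was higher and 1 lower, near the shares of all genes (5.09% and 9.57%). Prkaa2, a catalytic subunit of AMP-activated kinase, went from 320 ± 9.66 to 383 ± 8.38, and Trib3, an inhibitor of AKT, from 142 ± 8.77 to 107 ± 2.49.

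Among 18 measured transcription partners and repressors, 4 were higher and 3 lower, beside 5.09% and 9.57% of all genes. Nr0b2, encoding SHP, a bile acid induced repressor of Pck1 and G6pc transcription, read 349, 313 and 360 in wild-type and 698, 740 and 729 in Dnajb4-/- arrays. The groups lay far apart, with a log2 difference of 1.09 and an SE of 0.06 (limma, adjusted p = 8.42e-05). The pioneer factors Foxa1 and Foxa2 rose by 0.50 and 0.35 on the log2 scale, from 420 ± 24.3 to 595 ± 16 and from 643 ± 16.3 to 818 ± 37.1. Klf15, a glucocorticoid-induced activator of amino acid breakdown and gluconeogenesis, dropped by 0.43, from 2321 ± 71.8 to 1725 ± 57.4.

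Most known targets of the members were not called, beside 15526 of all 18193 genes not called. Of 13 PGC-1alpha targets measured, 3 were lower, 1 was higher and 9 were not called, with a median of -0.065. Alas1, the first enzyme of heme synthesis, fell from 1987 ± 12.2 to 1212 ± 21.3, a log2 difference of -0.71 (limma, adjusted p = 5.24e-05), and Sirt3, a mitochondrial deacetylase, fell by 0.32 on the log2 scale. Tat is in this list too, and Angptl4, an inhibitor of lipoprotein lipase, rose by 0.23. Of 13 FoxO targets, 2 were higher, 2 were lower and 9 were not called, with a median of -0.041. Ccng2, a cyclin of growth arrest, rose from 181 ± 3.19 to 261 ± 0.744, and Cited2 from 174 ± 8.10 to 236 ± 6.55, while Igfbp1, a binding protein of insulin-like growth factors, fell from 3054 ± 46.3 to 2620 ± 17.8 and Klf15 fell as given above. Of 14 genes of the CREB3L family, its proteases and its targets, 1 was higher, 2 were lower and 11 were not called, with a median of -0.021. The counts of these target lists stand beside 5.09% of all genes called higher and 9.57% called lower, and those of the CREB3L list are near these shares. Apcs, a pentraxin, fell by 0.30 and Apoa4, an apolipoprotein, rose by 0.29. Hamp, the iron hormone hepcidin, fell by 0.14, a call lost without any 1 array (adjusted p = 0.0784 to 0.106).

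Other gene groups moved with the genotype beside these results. Of 18 measured clock genes, 12 were lower and 5 higher, beside 9.57% and 5.09% of all genes, with a median of -0.57. Dbp, an output factor of the liver clock, averaged 1722 ± 21.6 in wild-type and 208 ± 8.76 in Dnajb4-/- livers, and Arntl, encoding the core clock factor BMAL1, 41.1 ± 0.798 against 97.1 ± 4.95. Usp2 and Ciart had log2 differences of -2.14 and -1.67. Many gluconeogenic genes follow the day and the meal, and the part of the clock difference in the members' values was not tested.

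Of 6 Kupffer cell markers 5 were lower, beside 9.57% of all genes. The Kupffer cell markers summed to 3782 to 3984 in wild-type and 2872 to 2993 in Dnajb4-/- arrays. Of 8 pericentral hepatocyte markers 4 were lower, beside 9.57% of all genes, with sums of 53004 to 53300 against 50173 to 50647. The count was 1 without wild-type replicate 1 or Dnajb4-/- replicate 3, and 2 without any of the other arrays. Of 6 measured periportal markers, from the zone where gluconeogenesis is strongest, 2 were higher, beside 5.09% of all genes. In limma 0 were called lower, and 1, Hsd17b13, was lower at an unadjusted p under 0.05. The median log2 difference of this list was -0.0072, so it did not rise as a set. The sums of these markers were 45219 to 45610 against 46379 to 47303, of which Cyp2f2 averaged 13325 against 14738. The count of higher periportal markers was 0 without wild-type replicate 1 or Dnajb4-/- replicate 3, and 1 without any of the other arrays. The part of these cells in the members' values was not tested.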

How the data were processed

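Liver RNA of 3 Dnajb4+/+ and 3 Dnajb4-/- mice was measured on Affymetrix mouse arrays. The authors normalized the probe intensities by GCRMA in GeneSpring, centred the arrays on the median, and deposited linear intensities per probe set. Raw signals and detection calls were not used here, so dim values cannot be set apart from background.

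Each gene's value was the mean log2 intensity of its probe sets with exactly 1 symbol (34945 probe sets, 18193 genes). The genotypes were compared with limma 3.58.1 in R 4.3.3 (lmFit and eBayes, two-sided, Benjamini-Hochberg over all genes, called under 0.05), and again over 45037 probe sets. The 64 control probe sets were left out, and those of Pcx were described from a fit that included them. The script was tested on simulated data.

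The members and lists were chosen with earlier results of these data known. All members were named, with up to 4 called genes per list, those of the largest difference, and the 5 genes most like Ppargc1a. Replicate numbers did not pair the arrays (correlations of deviations from the group means of -0.021, -0.14 and 0.0091 for numbers 1 to 3). Plots were made in matplotlib 3.10.9 (python 3.11.15), and promoter sequences came from RefSeq tables of GRCm38.p6.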

Additional observations from a re-analysis of the deposited data

How the results depend on the processing

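The calls of Ppargc1a (lower) and G6pc (higher) held under every alternative run, with Ppargc1a between -1.06 and -0.64 on the log2 scale and G6pc between 0.31 and 0.35. The number of members called lower was 4, also by the methods' t-test. It was 2 with quantile normalization, with arrays centred on brighter probe sets and without probe sets ending in s_at, x_at or a_at. It was 5 with genes below the median level left out and with the brightest probe set of each gene. Averaging on the linear scale gave 6, an offset of 16 added before the log 7, and a trended and robust variance 8. With control probe sets included it was 3, and on leaving out each array 1 to 3. Pck1, Foxo3 and Creb3l3 were the members gained with the offset, and Fbp1 as well with the trended variance. With the replicate number as a block it was 1, as Ppargc1b, Pck2 and Pcx no longer passed (adjusted p = 0.0891, 0.0545 and 0.138), and all genes had 1024 lower and 505 higher calls in place of 1741 and 926. The share of higher among all calls was 34.7%, 44.5% with quantile normalization and 50.5% with the centring. Pck1 turned from -0.20 to 0.067 without probe sets ending in s_at, x_at or a_at, as did Pfkl, to 0.093. For Pck1 this setting leaves the bright 1423439_at (-0.12) and the dim 1455209_at (0.26), averaged with equal weight. The probe set 1450236_at of Foxo3 turned to 0.013 with the centring and ran from -0.17 to 0.078 on leaving out each array, and 1456529_at of Foxo1 turned to 0.028 and ran from -0.058 to 0.078. The cause of the other changes was not tested. Intensities without detection calls limit what can be said of dim probe sets such as 1455209_at of Pck1 and 1452620_at of Pck2.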
